A study of Homo sapiens with 6 samples.

Results

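Notch receptors, ligands and target genes were followed by 3′ mRNA-Seq after depletion of YAP and TAZ in MCF10A, a human mammary epithelial line that is not transformed. The 10 genes were taken by name from the 23459 Entrez genes of the count table: the receptors NOTCH1, NOTCH2 and NOTCH3, the ligands JAG1, JAG2 and DLL1, the target genes HES1, HEY1 and NRARP, and the coactivator MAML2. All 10 were in the table, and 6 of them passed the low-count filter, as did 12510 genes in all. The cells received 20 nM of a non-targeting siRNA (siCtrl, 3 libraries) or of siRNA against YAP and TAZ (siYAP/TAZ, 3 libraries). TAZ is the protein of WWTR1. All libraries came from the same line, marked WT in every description and grown with insulin, hydrocortisone, cholera toxin, EGF and horse serum. For 2 libraries the labels contradict themselves, since the title and the genotype name one group and the description the other. Groups and replicate numbers here follow the description, whose text heads the columns of the table, so siCtrl replicate 2 and siYAP/TAZ replicate 2 carry the title and genotype of the other group.

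Notch receptors are single-pass membrane proteins that are activated by ligands on a neighbouring cell. The ligand pulls on the receptor, ADAM proteases and then the γ-secretase complex cut it, and the released intracellular part enters the nucleus, where it joins the DNA-binding protein RBPJ and a Mastermind-like (MAML) coactivator and switches on genes of the HES and HEY families and NRARP. In the mammary gland the pathway takes part in the choice between basal and luminal fates, and the transcriptional coactivators YAP and TAZ, which bind DNA through TEAD factors, are known to regulate Notch ligands in several epithelia. These statements are background and not results of the libraries.

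The libraries held 3175149 to 4317286 counts. YAP1 mRNA was 189, 204 and 210 CPM (TMM-normalised counts relative to library size) in siCtrl, against 116, 118 and 112 CPM after depletion, and WWTR1 was 109, 109 and 102 CPM against 70.5, 67.1 and 59.8 CPM. Both libraries with conflicting labels therefore had the levels of the group in their description. The log2 change was -0.80 for YAP1 and -0.69 for WWTR1, and -1.79, -2.12, -2.41 and -3.35 for the YAP/TAZ-activated genes AMOTL2, THBS1, CCN1 and CCN2 (adjusted p of 0.00879 to 0.0311 for these 6 genes in edgeR). These calls were lost in part when libraries were left out: the adjusted p of YAP1 was 0.0988 without siCtrl replicate 3, and 0.0606 or 0.112 with replicate 2 or 3 of siYAP/TAZ left out, and that of WWTR1 was 0.0602 to 0.176 without any single library other than siCtrl replicate 2. siCtrl replicate 2 stood apart from the other control libraries: on the first principal component, with 48.4% of the variance, it lay at 7.15, whereas siCtrl replicates 1 and 3 lay at -42.6 and -34.9 and the siYAP/TAZ libraries between 9.77 and 33.7. Values without it are given below. All 12 epithelial markers fixed for the cell type were present, with a summed level of 3263 to 3581 CPM in siCtrl and 2539 to 2640 CPM in siYAP/TAZ. KRT5, with means of 912 and 661 CPM, and KRT6A, with 1185 and 714 CPM, made up most of this difference. The log2 change was above 0 for 5 of the 12 and below 0 for 7, and 0 passed in edgeR without pairing. With the replicate block, 3 passed as lower in edgeR: KRT5 (adjusted p of 0.023), KRT6A (0.00186) and EPCAM (0.0364). TP63, with a log2 change of 0.58 and an adjusted p of 0.177 without pairing, was the 1 that passed as higher (0.0379 with the block). Of other cell types that use Notch, the 5 endothelial markers summed to 5.17 to 6.79 CPM in siCtrl and 7.93 to 15.2 CPM in siYAP/TAZ, with CDH5 at 0 to 2 counts in every library and PECAM1 at a mean of 1.32 CPM in siCtrl and 5.88 CPM in siYAP/TAZ (adjusted p of 0.0785 in edgeR, 0.0245 with the replicate block and 0.0312 in DESeq2). KDR had 2, 2 and 1 counts in siCtrl, against 4, 5 and 11 after depletion. Of the 5 fibroblast markers, COL1A2 was at 0 in every library, and PDGFRA, at 154 to 183 CPM, made up most of the sum. The 4 leukocyte markers summed to 5.74 to 12.0 CPM in siCtrl and 4.08 to 8.92 CPM in siYAP/TAZ. The 4 markers of hormone-sensing luminal cells summed to 48.0 to 56.0 and 47.3 to 58.9 CPM. GATA3, at 39.5 to 50.3 CPM, made up most of this luminal sum, and PGR had 1 to 3 counts per library. The part of these shifts in the Notch genes was not tested.

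Sequences before the gene starts are shown for a pair of Notch target genes and for NOTCH1 and JAG2, the tested receptor and ligand whose libraries did not overlap between groups. They are the 250 bases upstream of the RefSeq start on GRCh38.p14, written 5′ to 3′ on the strand of the gene, at chr3:194135898-194136147 (plus strand) for HES1, chr9:137302272-137302521 (minus) for NRARP, chr9:136546049-136546298 (minus) for NOTCH1 and chr14:105168777-105169026 (minus) for JAG2. Capitals mark matches on either strand to the RBPJ core TGGGAA, the TEAD core GGAATG or the AP-1 site TGANTCA, and the RBPJ and TEAD cores share the letters GGAA.
HES1: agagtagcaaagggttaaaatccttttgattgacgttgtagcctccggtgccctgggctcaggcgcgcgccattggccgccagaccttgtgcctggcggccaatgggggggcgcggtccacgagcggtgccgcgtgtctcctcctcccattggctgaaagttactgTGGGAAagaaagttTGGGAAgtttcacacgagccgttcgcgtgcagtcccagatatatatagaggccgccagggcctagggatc
NRARP: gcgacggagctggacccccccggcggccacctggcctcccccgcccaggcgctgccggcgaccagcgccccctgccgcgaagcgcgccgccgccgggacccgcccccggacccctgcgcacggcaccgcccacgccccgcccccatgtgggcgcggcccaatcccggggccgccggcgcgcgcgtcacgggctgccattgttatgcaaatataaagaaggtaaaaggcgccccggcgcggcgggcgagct
NOTCH1: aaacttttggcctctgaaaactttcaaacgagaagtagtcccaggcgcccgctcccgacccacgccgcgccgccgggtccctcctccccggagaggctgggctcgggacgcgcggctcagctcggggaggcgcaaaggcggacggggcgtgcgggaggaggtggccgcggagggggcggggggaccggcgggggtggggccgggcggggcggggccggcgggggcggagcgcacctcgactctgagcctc
JAG2: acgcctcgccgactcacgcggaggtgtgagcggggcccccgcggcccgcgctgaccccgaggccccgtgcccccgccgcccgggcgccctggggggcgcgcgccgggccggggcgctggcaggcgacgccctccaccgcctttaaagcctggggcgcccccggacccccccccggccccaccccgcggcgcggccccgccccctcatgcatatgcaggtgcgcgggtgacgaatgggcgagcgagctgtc
HES1 had 2 matches to the RBPJ core, which begin 84 and 70 bases before the start. No capitals appear in the other sequences. Of 27305 promoters of the same length, 21.1% held the RBPJ core at least once and 2.92% at least 2 times, 11.9% held the TEAD core and 6.60% the AP-1 site. Of the 10 genes, 8 had an entry (not DLL1 and HEY1), and HES1 was the only one of these 8 with any of the 3 motifs. G and C made up 59.2% of the HES1 window, 76% of NOTCH1, 78.4% of NRARP and 81.6% of JAG2, where the median of all promoters was 58%. A match is a string of letters and not a measured binding site, and its absence says only that the letters are not in this window.

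After depletion of YAP and TAZ, the receptor NOTCH1 and the ligand JAG2 were higher in every siYAP/TAZ library than in any siCtrl library, and the target gene NRARP was lower. None of the 6 genes with enough counts to be tested passed without pairing, and NOTCH1 alone passed when the libraries were paired by replicate number (adjusted p of 0.0453 in edgeR). HES1, JAG1, NOTCH2 and MAML2 overlapped between the groups. Of the 6 tested genes, 0 passed an adjusted p of 0.05 in edgeR (quasi-likelihood test, Benjamini-Hochberg adjustment), and DESeq2 also called 0, where 1.96% of all genes tested passed in edgeR and 4.73% in DESeq2. At an unadjusted p under 0.05, 2 of the 6 were higher and 0 lower in edgeR (NOTCH1 and JAG2) and 1 was higher in DESeq2 (NOTCH1), beside 8.4% of all genes higher and 9.27% lower in edgeR. The 6 log2 fold changes had a median of 0.068, with 4 above 0 and 2 below, and the median over all genes was -0.00093. The siCtrl and siYAP/TAZ libraries did not overlap for NOTCH1 and JAG2 and overlapped for the other 4 tested genes; over all genes, 11.0% were separated upwards and 11.1% downwards. The study's methods speak of biological replicates for RNA-Seq in general, while the labels of these 3′ libraries do not say whether they came from separate cultures. The p-values measure the spread between these libraries. In such bulk RNA, fewer cells that express a gene and less of its RNA per cell cannot be told apart.

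**Figure D1:**
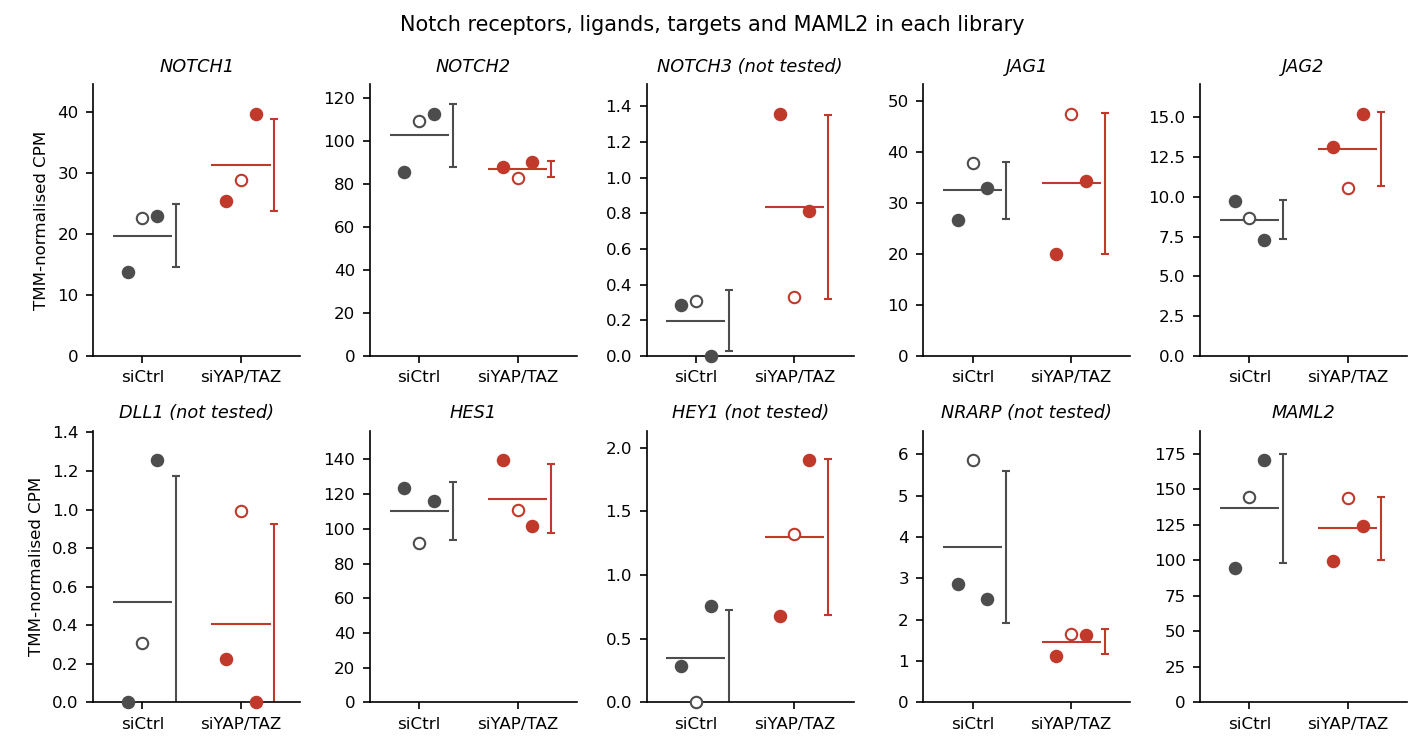
Level of each of the 10 genes in each library (TMM-normalised CPM on a linear axis from 0). Points are libraries in the order of replicates 1 to 3, and open points are the pair whose title and description disagree. Horizontal lines are group means and bars the SD over 3 libraries. NOTCH1, JAG2 and NRARP are separated between groups, while HES1, JAG1, NOTCH2 and MAML2 overlap. NOTCH3, at 6 counts or fewer per library, is separated only by scaling (0.309 against 0.331 CPM), since its groups meet at 1 count.

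Among the receptors, NOTCH1 (Entrez 4851; GRCh37 chromosome 9, 139388885 to 139440500, minus strand) gave the smallest p of the 6 tested genes. It had 13.8, 22.5 and 22.9 CPM in siCtrl, against 25.4, 28.8 and 39.7 CPM after depletion. Every siYAP/TAZ library was above every siCtrl library, siCtrl replicate 1 was the lowest and siYAP/TAZ replicate 3 the highest. The means were 19.7 ± 5.15 and 31.3 ± 7.49 CPM (SD, n = 3), a 1.58-fold difference with a 95% interval of 1.07 to 2.34 and a log2 fold change of 0.66 (SE 0.25). Its adjusted p was 0.222 in edgeR. The replicate numbers were taken to pair the libraries, a pairing inferred from the libraries themselves. With the replicate number as a block the log2 fold change was 0.68 and the adjusted p 0.0453 in edgeR. NOTCH1 was then the 1 Notch gene that passed, where 10.1% of all genes did. Without siCtrl replicate 2 the log2 fold change was 0.76 and the adjusted p 0.0908 in edgeR. The adjusted p was 0.201 to 0.594 without any other single library. Leaving out siCtrl replicate 1 or siYAP/TAZ replicate 3, the extremes, brought the log2 fold change to 0.46 in both cases.

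NOTCH2 (Entrez 4853; chromosome 1, 120454176 to 120643366, minus strand), the receptor with most counts, had 85.6, 109 and 113 CPM in siCtrl, against 87.9, 82.6 and 90.0 CPM after depletion. The 3 depleted libraries lay within a narrow range that siCtrl replicate 1 shared. The log2 fold change was -0.24 (SE 0.14, edgeR adjusted p of 0.424), with a 95% interval of 0.679 to 1.06 on the fold scale. NOTCH2 has near-identical partial copies, and the 1 copy found by name in the table, NOTCH2NLA, held 535, 820 and 827 counts in siCtrl, against 757, 538 and 711 after depletion, while NOTCH2 itself had 298, 354 and 448 and then 388, 250 and 331, so how reads were shared between them is uncertain. NOTCH3 (Entrez 4854; chromosome 19, 15269849 to 15311806, minus strand) was hardly seen, with 1, 1 and 0 counts in siCtrl, against 6, 1 and 3 after depletion. It did not pass the low-count filter. The ratio of the summed counts, corrected for depth, was 4.76 with an exact 95% interval of 1.01 to 44.7, which covers counting error only, and in the fit without the filter the adjusted p was 0.427.

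The balance of the main receptors can be read inside each library, where scaling plays no part. The log2 ratio of NOTCH1 to NOTCH2 counts was -2.62, -2.27 and -2.29 in siCtrl and -1.79, -1.52 and -1.18 in siYAP/TAZ. All 3 depleted libraries had relatively more NOTCH1 than any control library. The difference of 0.90 had a two-sided exact permutation p of 0.1 without pairing, the smallest that 3 against 3 libraries allow. It was 0.3 after adjustment over the 3 ratios examined. With the libraries paired by replicate number, the exact permutation p was 0.25, the smallest that 3 pairs allow. Over the alternatives the difference stayed above 0, and it was 0.40 with the groups of the titles and 0.97 without the pair of conflicting libraries.

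Of the ligands, which activate receptors on adjacent cells, JAG2 (Entrez 3714; chromosome 14, 105607319 to 105635161, minus strand) was measured at 9.76, 8.64 and 7.29 CPM in siCtrl, against 13.1, 10.6 and 15.2 CPM after depletion. No siYAP/TAZ library reached down to the control range, and siYAP/TAZ replicate 2 was the closest to it. The means of 8.56 ± 1.24 and 12.98 ± 2.33 CPM (SD, n = 3) gave a 1.52-fold difference (95% interval of 1.03 to 2.26), with a log2 fold change of 0.61 (SE 0.25) at an adjusted p of 0.257 in edgeR. With the replicate block the adjusted p was 0.171, and without siCtrl replicate 2 it was 0.192 at a log2 fold change of 0.62. It was 0.298 to 0.608 without any other single library and 0.412 in DESeq2. By the groups of the titles it was 0.898 in edgeR at a log2 fold change of 0.43.

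JAG1 (Entrez 182; chromosome 20, 10618332 to 10654647, minus strand) showed no common direction, with 26.7, 38.0 and 32.9 CPM in siCtrl, against 19.9, 47.6 and 34.3 CPM after depletion. Its lowest and its highest library were both siYAP/TAZ libraries. The log2 fold change was 0.048 (SE 0.29, edgeR adjusted p of 0.951), the 95% interval ran from 0.659 to 1.62 on the fold scale, and the sign turned when siCtrl replicate 1 (-0.076) or siYAP/TAZ replicate 2 (-0.26) was left out. The log2 ratio of JAG1 to JAG2 was 1.44, 2.12 and 2.16 in siCtrl and 0.60, 2.15 and 1.16 in siYAP/TAZ, a difference of -0.60 with a two-sided exact permutation p of 0.3 (also 0.3 after adjustment), so a change in the balance of the Jagged ligands was not shown. DLL1 (Entrez 28514; chromosome 6, 170591294 to 170615653, minus strand), a Delta-like ligand, had 0, 1 and 5 counts in siCtrl, against 1, 3 and 0 after depletion. At this depth no difference could be detected, since the ratio of its summed counts had an exact 95% interval of 0.132 to 2.68.

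Of the target genes HES1, NRARP and HEY1, only HES1 passed the low-count filter with all libraries, and none was called. HES1 (Entrez 3280, chromosome 3, 193853937 to 193856521, plus strand) is a repressor of the basic helix-loop-helix class and the gene with the 2 string matches shown above. It had 124, 91.6 and 116 CPM in siCtrl, against 140, 111 and 101 CPM after depletion. The groups overlapped, with the lowest value in siCtrl replicate 2 and the highest in siYAP/TAZ replicate 1. The means were 110 ± 16.7 and 117 ± 19.9 CPM (SD, n = 3), and the log2 fold change of 0.088 (SE 0.17, edgeR adjusted p of 0.831) had a 95% interval of 0.819 to 1.38 on the fold scale. The sign of this difference turned without siCtrl replicate 2 (-0.026) or siYAP/TAZ replicate 1 (-0.059).

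NRARP (Entrez 441478; chromosome 9, 140194083 to 140196723, minus strand), which encodes a small ankyrin-repeat protein that acts back on the Notch complex, had 10, 19 and 10 counts in siCtrl, against 5, 5 and 6 after depletion. Each siYAP/TAZ library was below each siCtrl library, and siCtrl replicate 2 was the highest. In CPM the means were 3.75 ± 1.84 and 1.47 ± 0.294 (SD, n = 3). The ratio of the summed counts (39 and 16) was 0.391, with an exact 95% interval of 0.204 to 0.715 for counting error only. NRARP did not pass the low-count filter. In the fit without it the log2 fold change was -1.33 with an unadjusted p of 0.0201 and an adjusted p of 0.231, and 7.03% of all genes in that fit were lower at an unadjusted p under 0.05. Without siYAP/TAZ replicate 2 it passed the filter, at -1.41 with an adjusted p of 0.344. Its 3′ end overlaps the noncoding gene ENSG00000288234 on the opposite strand (not analysed here), and whether counting used strand is not stated, so its counts are uncertain.

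HEY1 (Entrez 23462; chromosome 8, 80674606 to 80680092, minus strand), a repressor related to HES1, had 1, 0 and 3 counts in siCtrl, against 3, 4 and 7 after depletion. The groups met at 3 counts. The ratio of the summed counts was 3.33 with an exact 95% interval of 1.05 to 13.9 for counting error, and the adjusted p without the low-count filter was 0.436. The log2 ratio of HES1 to HEY1 was 8.17, 9.22 and 7.04 in siCtrl and 7.46, 6.22 and 5.64 in siYAP/TAZ, a difference of -1.70 with a two-sided exact permutation p of 0.2 (0.3 after adjustment) that rests on the few HEY1 counts.

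MAML2 (Entrez 84441; chromosome 11, 95709762 to 96076359, minus strand), a Mastermind-like coactivator of the nuclear complex, had 94.8, 144 and 171 CPM in siCtrl, against 99.7, 144 and 125 CPM after depletion. The control libraries spread over nearly the whole range and enclosed all depleted ones. The log2 fold change was -0.16 (SE 0.22, edgeR adjusted p of 0.756), with a 95% interval of 0.637 to 1.26 on the fold scale, and it was 0.035 without siCtrl replicate 3.

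**Figure D2:**
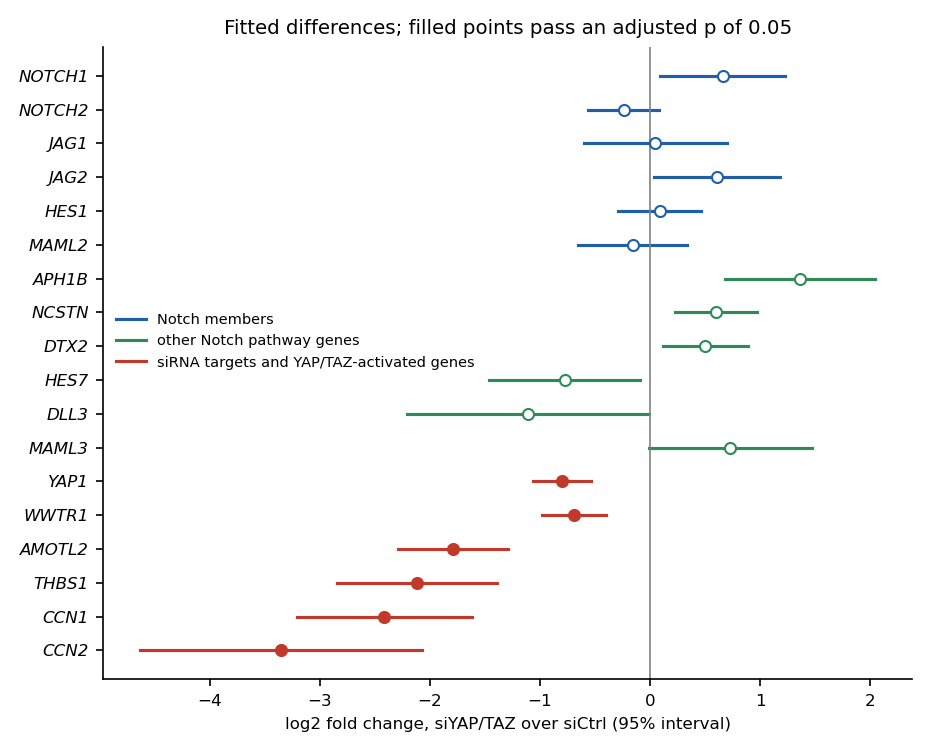
Log2 fold change of siYAP/TAZ over siCtrl with its 95% interval from edgeR, for the 6 tested Notch genes, 6 other pathway genes, and the siRNA targets with 4 YAP/TAZ-activated genes. Filled points pass an adjusted p of 0.05: all red points do and none of the blue or green points does, and the intervals of NOTCH1, JAG2, APH1B, NCSTN and DTX2 lie above 0 and those of HES7 and DLL3 below 0 before adjustment.

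Other genes of the pathway were taken from a list of 57 symbols grouped by role, of which 56 were matched and 42 tested; CIR1 was left out because its symbol is now an alias of 2 genes. By edgeR, 0 of the 42 passed an adjusted p of 0.05, while an unadjusted p under 0.05 was reached by 3 higher and 2 lower genes, no more than the 8.4% and 9.27% of all genes would give. DESeq2 called 1 (APH1B), and 4.73% of all genes. Their median log2 fold change was 0.11, with 29 above 0 and 13 below, where 6240 of the 12510 genes tested were above 0. Groups did not overlap for 5 upwards (APH1B, NCSTN, DTX2, HES2 and POGLUT1) and 1 downwards (NEURL1B), where 11.0% and 11.1% of all genes did not, so the upward count was near that of genes in general. With the replicate block 3 passed, all higher (APH1B, NCSTN and MAML3), where 4.66% of all genes were called higher. Without siCtrl replicate 2 the count was 4 with TLE1, a Groucho-type corepressor, beside 6.08% of all genes called higher.

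The genes that cut the receptor were above 0 in 8 of 8 cases (median log2 fold change of 0.13), and 2 of them gave the smallest p-values of the 42. APH1B, a subunit of one form of γ-secretase, had 10, 14 and 21 counts in siCtrl, against 44, 31 and 45 after depletion. Every depleted library exceeded every control library. The means were 4.16 ± 1.21 and 10.8 ± 1.24 CPM (SD, n = 3), with a log2 fold change of 1.36 (SE 0.30) at an adjusted p of 0.0559 in edgeR, which missed the threshold. It was 0.0146 with the replicate block, 0.0286 without siCtrl replicate 2, 0.0290 without the low-count filter and 0.0254 in DESeq2. With any one of the other 5 libraries left out it was 0.101 to 0.245, and by the groups of the titles it was 0.898 at a log2 fold change of 0.56.

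NCSTN, which encodes nicastrin, the γ-secretase subunit that receives the substrate, had 23.8, 29.6 and 24.1 CPM in siCtrl, against 37.2, 38.0 and 42.4 CPM after depletion. The groups were separated and each was narrow. Its log2 fold change was 0.60 (SE 0.17), and edgeR gave an adjusted p of 0.100, 0.0435 with the replicate block and 0.0221 without siCtrl replicate 2. Leaving out any one of the other 5 libraries gave 0.168 to 0.357. Smaller values were found for APH1A, the paralogue of APH1B, with a log2 fold change of 0.042, for PSEN2, with 0.13, and for PSENEN, with 0.33, with adjusted p-values of 0.578 to 0.908 in edgeR. For the proteases that make the first cut it was 0.13 for ADAM10 and 0.059 for ADAM17. Without siCtrl replicate 2, 7 of the 8 genes were above 0, and 6 of 8 without the pair of conflicting libraries.

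In the nuclear complex, 5 of 7 genes were above 0 and 0 passed. MAML3, a Mastermind-like coactivator as MAML2 is, had 29.0, 81.2 and 45.2 CPM in siCtrl, against 64.8, 106 and 87.0 CPM after depletion. The high control value was that of siCtrl replicate 2, which overlapped the depleted libraries, and in every replicate pair the siYAP/TAZ library was the higher. Its log2 fold change was 0.73 (SE 0.33), and edgeR gave an adjusted p of 0.285, 0.0103 with the replicate block, and 0.0109 without siCtrl replicate 2. Single libraries moved the fold change, to 1.20 without siCtrl replicate 2 and to 0.45 without siCtrl replicate 1 (adjusted p of 0.553). RBPJ, the DNA-binding subunit, had a log2 fold change of -0.0059 (SE 0.13, edgeR adjusted p of 0.987), and MAML1 of 0.12.

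DTX2, a Deltex ubiquitin ligase, had 23.8, 23.4 and 19.3 CPM in siCtrl, against 29.7, 33.7 and 31.0 CPM after depletion, separated between groups, with a log2 fold change of 0.50 (SE 0.17) at an adjusted p of 0.177 in edgeR. The other genes of turnover and trafficking had log2 fold changes of -0.16 to 0.28. HES7, an oscillating HES repressor of the segmentation clock, had 17.2, 20.1 and 20.6 CPM in siCtrl, against 7.93, 17.5 and 8.98 CPM after depletion. The group of siYAP/TAZ overlapped the controls in replicate 2, one of the libraries with conflicting labels. HES7 had a log2 fold change of -0.77 (SE 0.31, edgeR adjusted p of 0.233), and -1.16 with an adjusted p of 0.0263 without the conflicting pair. DLL3, a ligand that does not activate receptors on adjacent cells, had 15, 9 and 28 counts in siCtrl, against 14, 3 and 8 after depletion, with a log2 fold change of -1.11 (SE 0.49, edgeR adjusted p of 0.281). The corepressors were 4 above and 4 below 0, with NCOR1 at 0.096. DLL4, DLK1, HES5 and HEY2 had 0 counts in every library, and MFNG, DTX1 and HEYL had at most 2.

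**Figure D3:**
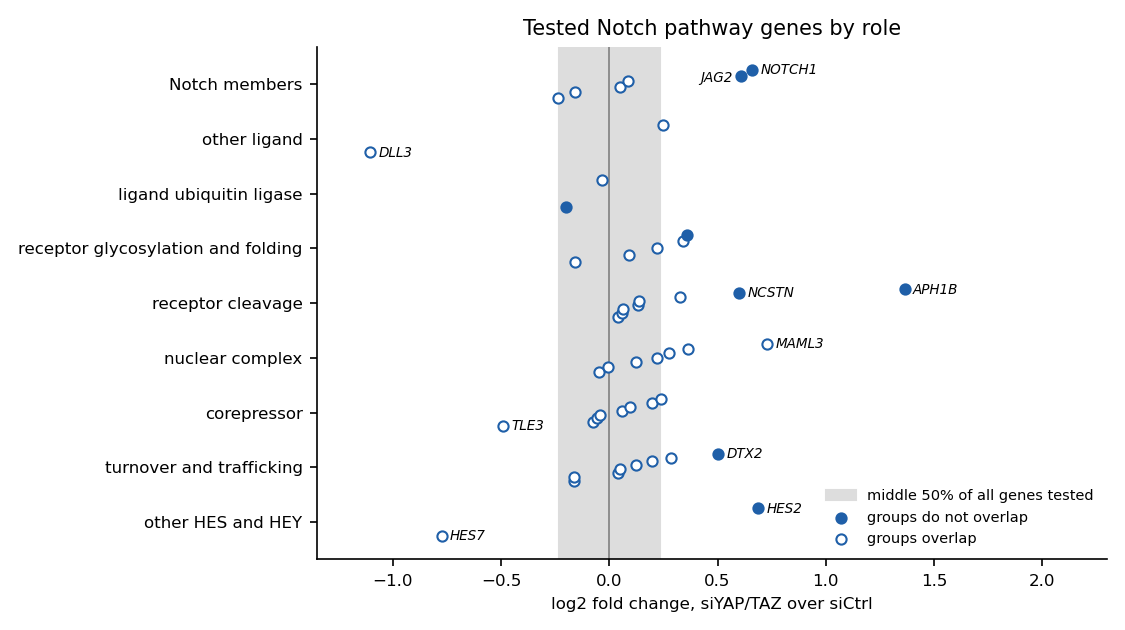
Log2 fold change of siYAP/TAZ over siCtrl for the 6 tested Notch members and the 42 other tested pathway genes, arranged by role. Filled points are genes whose siCtrl and siYAP/TAZ libraries do not overlap, and the grey band spans -0.23 to 0.23, the middle 50% of all 12510 genes tested; the receptor cleavage genes all lie to the right of 0, and most genes of the other roles lie in or near the band.

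The tested genes whose log2 CPM pattern over the 6 libraries lay nearest to that of NOTCH1, after centring each gene, were KCNG2 (a potassium channel subunit; distance 0.217), UQCRC1 (a subunit of mitochondrial complex III; 0.245) and PARD6G (a cell polarity protein; 0.258). Their Pearson correlations with NOTCH1 were 0.981, 0.976 and 0.977 over 6 libraries that share the group difference, and they are the closest of 12510 genes, so high values are given as a description.

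**Figure D4:**
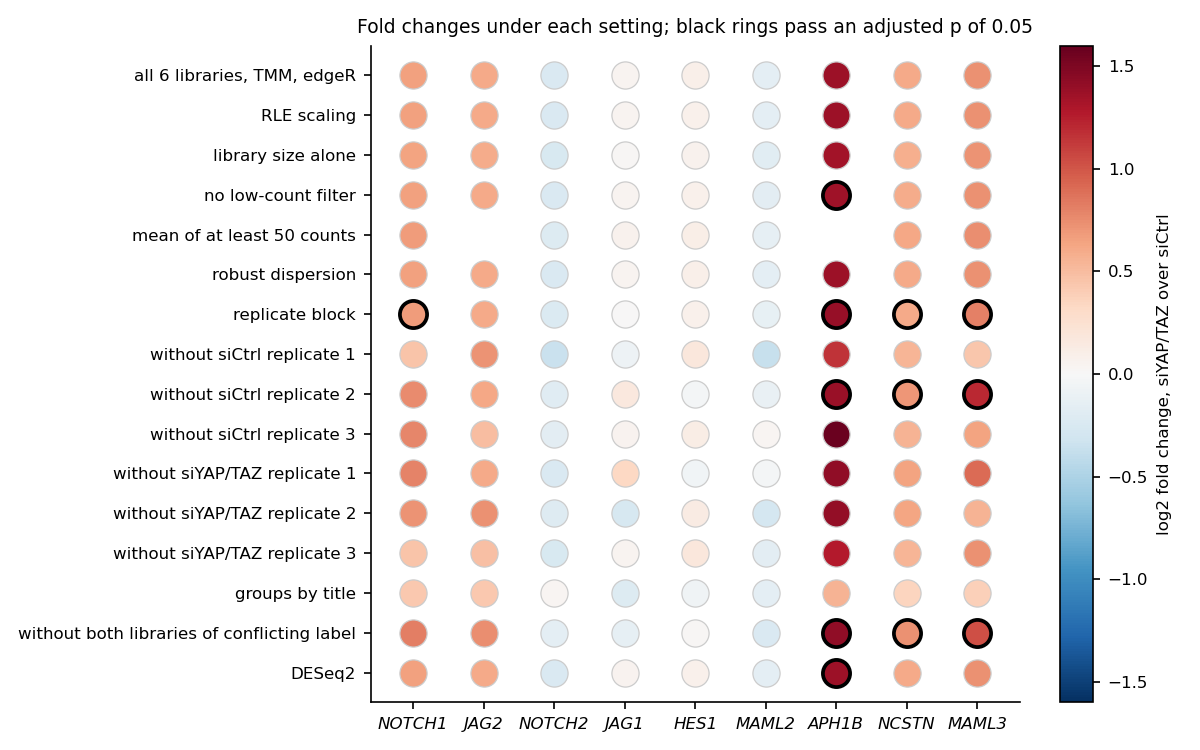
Log2 fold change of 9 Notch pathway genes (columns) under each processing setting (rows), coloured from blue (lower in siYAP/TAZ) to red (higher). Black rings mark an adjusted p under 0.05; NOTCH1 has 1 ring, with the replicate block, APH1B has 5, NCSTN and MAML3 have 3 each, and JAG2, NOTCH2, JAG1, HES1 and MAML2 have none. Empty places are genes that the filter removed.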

How the data were processed

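MCF10A libraries were made from 0.5 µg of RNA with the QuantSeq FWD kit, which reads the 3′ end of polyadenylated RNA, so counts were not divided by gene length. The authors deposited raw counts per Entrez gene; the submitters' processing notes name cutadapt 4.2, Bowtie2 2.3.5.1 and hg19, while the gene annotation and the use of strand are not given in the sources used here. Symbols for 23308 of 23459 genes came from RefSeq (GRCh38.p14, names only), coordinates from GENCODE lifted to GRCh37 (hg19). The counts as deposited were tested with edgeR 4.0.16 (R 4.3.3; default low-count filter, TMM, quasi-likelihood F test, group as the only term, Benjamini-Hochberg adjustment over all tested genes, threshold 0.05). Standard errors and 95% intervals follow from the F statistic and its degrees of freedom. Ratios within a library used a pseudocount of 0.5 and an exact permutation test, without pairing unless stated. Alternatives were DESeq2 (version 1.42.0 here), RLE scaling, scaling by library size, and the table without a filter or with genes of 50 counts or more on average. Further ones were robust dispersion, the replicate block, the groups of the titles, and leaving out single libraries or the conflicting pair. The study names DESeq2, in a version of its own, for its RNA-Seq. The code was tested on simulated counts.

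The replicate numbers of the descriptions were taken to pair the libraries, because same-numbered libraries deviated from their groups together. Across genes, which are not independent, the deviations in log2 CPM had correlations of 0.42 (replicate 1), 0.35 (replicate 2) and 0.13 (replicate 3). Differently numbered libraries of the 2 groups had correlations of -0.36 to 0.045. These are not separate evidence, since deviations from a group mean add up to 0. Positive values for same-numbered libraries therefore push the others down. The pairing was thus inferred from the same libraries that were tested. Replicates were never identical: chi-square per degree of freedom within groups was 5.37 to 17.4. A count of 0 allows up to 3 counts, 0.695 to 0.945 CPM without TMM factors, and intervals on counts cover counting error only, since the reads carry no molecular identifiers. Named genes were all 10 members, the 6 other pathway genes with the smallest p, genes of at most 3 counts, the siRNA targets, 4 YAP/TAZ-activated genes and the 3 nearest patterns; the other values were chosen after they were seen. The members and lists were chosen with earlier results of these data known. Single values of some listed pathway genes are not reported here.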

Additional observations from a re-analysis of the deposited data

How the results depend on the processing

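Of 90 fold changes of the Notch genes over the alternatives, 80 kept their direction and their side of the threshold, 9 turned their sign and 1 passed the threshold (NOTCH1 with the replicate block, adjusted p of 0.0453; 0.0453 to 0.898 over its 15 alternatives). None of the turned values was past the threshold: NOTCH2 was 0.030 with the groups of the titles, JAG1 -0.076 without siCtrl replicate 1, -0.26 without siYAP/TAZ replicate 2, -0.22 by title and -0.15 without the conflicting pair, HES1 -0.026 without siCtrl replicate 2, -0.059 without siYAP/TAZ replicate 1 and -0.073 by title, and MAML2 0.035 without siCtrl replicate 3. With single libraries left out JAG1 ranged from -0.26 to 0.33, HES1 from -0.059 to 0.19 and MAML2 from -0.36 to 0.035. The difference of the HES1 to HEY1 log2 ratio was 0.29 by title. With the replicate block, 1263 genes passed in place of 245, 1 Notch gene in place of 0 and 3 other pathway genes in place of 0, and the block ended no call of YAP1 or WWTR1. All genes past the threshold numbered 556 without the low-count filter, 592 in DESeq2, 1183 without the conflicting pair and 0 by title; other pathway genes numbered 1 without the filter, 1 in DESeq2 and 4 without the conflicting pair; and of the 2 siRNA targets 0 passed by title. Leaving out 1 library each gave 16 (without siCtrl replicate 3) to 1579 genes (without siCtrl replicate 2), 0 Notch genes, 0 to 4 other pathway genes (4 without siCtrl replicate 2) and 0 to 2 siRNA targets (0 in 3 cases: siCtrl replicate 3, and replicates 2 and 3 of siYAP/TAZ). The cause of these differences was not tested, and the fits that left out libraries also had fewer of them. A mean of at least 50 counts left no value for JAG2 and APH1B. At this depth NOTCH3, DLL1, HEY1 and NRARP had too few counts for the test.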

Other observations

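Further low-count genes of the pathway were looked at after their values had been seen, so they are given as values. LFNG, a Fringe enzyme that adds sugars to Notch receptors, had 1, 0 and 2 counts in siCtrl, against 9, 0 and 9 after depletion. The ratio of the summed counts was 5.71 (exact 95% interval of 1.67 to 30.3 for counting error), although siYAP/TAZ replicate 2 held none. MIB2, a Mind bomb ubiquitin ligase of the ligands, had 6, 8 and 8 counts in siCtrl, against 9, 19 and 13 after depletion, a ratio of 1.77 (1.03 to 3.13). In CPM its groups overlapped, with 2.04 in siYAP/TAZ replicate 1 and 2.47 in siCtrl replicate 2. NOTCH4, the remaining receptor, had 10 counts in siCtrl and 9 in siYAP/TAZ in all, a ratio of 0.857 (0.308 to 2.35).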
